A study of Mus musculus with 4 samples.

Results

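The genes described here encode mitotic kinases and the machinery of the spindle checkpoint: Aurka, Aurkb and Tpx2, Plk1, Plk4 and Nek2, and Bub1, Bub1b, Bub3 and Ttk. They were chosen by name, with earlier results of these data known. All 10 were found among the 14533 genes of the table by matching its Ensembl identifiers to mouse symbols. The RNA came from mouse embryonic stem cells (ESCs) that were grown with serum (serum ESCs) or with a pair of inhibitors of the kinases MEK and GSK3 (2i ESCs). Each population had been adapted to its medium for over 20 days and sorted, and each condition has 2 libraries, and the medium is the only difference that the labels give. The labels place all 4 libraries in late G1-phase, whereas the text on the series design speaks of early G1-phase. The labels give no cell line, and the replicates are described as biological without a statement that they were separate cultures, so p-values measure the spread between these libraries, which may be partly technical.

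Mitotic kinases act by phosphorylating proteins of the centrosome, the kinetochore and the spindle as a cell divides. The spindle checkpoint holds the anaphase-promoting complex inactive until every chromosome is attached to spindle fibres. In dividing cells the mRNAs of most of these genes, though not necessarily all, accumulate in G2-phase and mitosis and are low in G1-phase. Bulk RNA cannot tell fewer cells of a type, such as cells outside G1-phase in the sort, from less RNA per cell.

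The libraries held from 18939401 to 26570098 whole reads, and the reads behind a member in 1 library ranged from 123 to 5049. Reads of protein-coding genes made up from 46.9% (serum replicate 1) to 76.3% (serum replicate 2) of a library, and reads of its 10 most abundant genes from 50.6% to 17.5% of the same libraries, with the 2i libraries in between. All 10 ESC markers checked were measured, and their summed normalized counts were 53493 to 69733 in serum and 58023 to 70848 in 2i. Of the markers of other cell types, those of primitive endoderm, with 4 of 7 measured, summed to 72.0 to 109 in serum and 256 to 332 in 2i. The fibroblast markers, with 2 of 7 measured, summed to 193 to 230.1 and 58.2 to 199, and the trophoblast markers, with 3 of 5 measured, to 223 to 418 and 205 to 2480. The mesoderm marker, 1 of 3 measured, was at 6.80 to 102 in serum and 11.4 to 68.9 in 2i, and the neural markers, with 2 of 3 measured, summed to 341 to 636 and 338 to 359. No measured marker was at 0 in all 4 libraries, and the part of these cell types in the results was not tested.

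The transcripts of most of these genes were more abundant in serum ESCs than in 2i ESCs, but none passed limma or edgeR across all genes, and 3 passed DESeq2. The values are normalized counts, which are read counts divided by a scaling factor for each library, and fold changes are serum over 2i on log2(normalized count + 1). Of the 10 genes, 9 were higher in serum by any amount, against 50.3% of the 13005 genes tested, and 7 were at least 2-fold higher, against 9.89%. In 8 genes both serum values lay above both 2i values, against 20.5% of all genes. The median log2 fold change was 1.64 over the 10 genes and 0.0047 over all genes tested. By role, it was 1.58 over the Aurora group, 1.76 over the Polo and NIMA group and 1.47 over the checkpoint group.

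With limma, a moderated linear model, 0 of the 10 genes were called (Benjamini-Hochberg adjusted p-value below 0.05 together with a 2-fold difference), against 0.0154% of all genes. At an unadjusted p-value under 0.05 with a 2-fold higher level in serum, limma gave 7 of the 10 genes, against 2.97% of all genes. Without serum replicate 2 that number was 1. DESeq2 on the whole reads called 3 of them, against 0.561% of all genes, and edgeR called 0 members and 0 genes in all, with 787 of 13005 genes at an unadjusted p-value under 0.05. A limma fit with the replicate number as a block called 2, against 0.338%. The 95% interval of the fold change lay above 1 in 7 genes and held 1 in the other 3, namely Aurkb, Plk4 and Bub3.

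**Figure D1:**
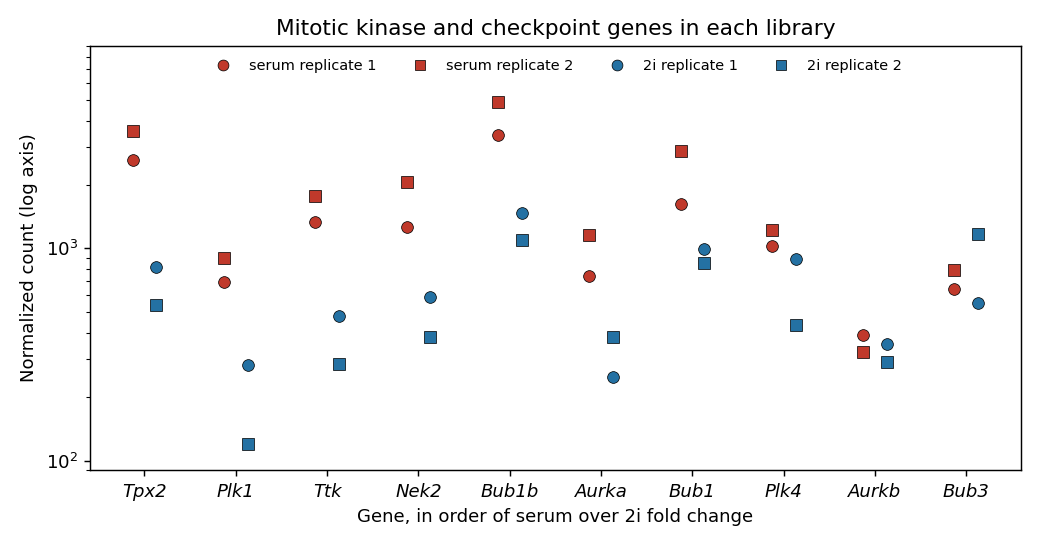
Normalized counts of the 10 mitotic kinase and checkpoint genes in each library, on a log axis, with serum and 2i libraries marked separately. In 8 genes both serum points lie above both 2i points, while the points of Aurkb and Bub3 overlap.

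Sequences around the transcription start were examined because in 8 of the 10 genes both serum values lay above both 2i values. Another reason was that genes of G2-phase and mitosis are known for a cell cycle homology region (CHR) and CCAAT boxes near their start. RefSeq windows of the build GRCm38.p6, from 250 bases before to 50 after the start, were held for 8 of the 10 genes, with no entry used for Aurkb and Tpx2. The CHR words TTTGAA and TTCGAA and the word CCAAT were searched on both strands, and no matches overlapped one another in these windows. TTTGAA was found in 5 of 8 genes (Aurka, Plk1, Bub1b, Bub3 and Ttk) and in 17.9% of all 32851 promoter windows, or 20.2% of the 27025 genes with a window. TTCGAA was found in 2 of 8 (Bub1 and Bub1b) and in 1.56% of all windows (1.80% of genes), and CCAAT in 7 of 8, all but Plk4, and in 37.4% of windows (41.1% of genes). The E2F words TTTGGCGC, TTTCGCGC and TTTCCCGC were found in 0 of 8 and in 0.514%, 0.323% and 1.07% of all windows (0.585%, 0.374% and 1.24% of genes). Of 35 partner genes with a window, from the list described below, 34.3% held TTTGAA, 8.57% TTCGAA and 48.6% CCAAT. For the E2F words, in the same order, the shares of these partner genes were 0%, 2.86% and 0%. The 5 windows printed here run from 110 bases before to 40 after the start, 5′ to 3′ on the gene's strand. They set 4 genes whose serum and 2i values did not overlap beside Bub3, whose values did. Each of these 4 genes held a CHR word. Of the genes without overlap that are not printed, Bub1b held CHR and CCAAT words, Nek2 held CCAAT words alone and Plk4 held no word. Capitals mark CHR and CCAAT words on either strand. Plk1 is at chr7:122159325-122159474 (plus strand), Aurka at chr2:172370531-172370680 (minus), Ttk at chr9:83834579-83834728 (plus), Bub1 at chr2:127831820-127831969 (minus) and Bub3 at chr7:131560260-131560409 (plus).
Plk1: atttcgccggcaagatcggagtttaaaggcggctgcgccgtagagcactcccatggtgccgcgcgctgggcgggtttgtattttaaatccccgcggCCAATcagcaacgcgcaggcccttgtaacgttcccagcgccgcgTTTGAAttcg
Aurka: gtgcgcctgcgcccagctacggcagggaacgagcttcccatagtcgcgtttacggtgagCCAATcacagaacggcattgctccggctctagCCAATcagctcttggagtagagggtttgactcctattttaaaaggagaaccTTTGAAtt
Ttk: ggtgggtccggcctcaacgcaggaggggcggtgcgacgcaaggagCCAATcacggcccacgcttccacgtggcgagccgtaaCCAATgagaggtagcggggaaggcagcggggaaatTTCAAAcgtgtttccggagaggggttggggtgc
Bub1: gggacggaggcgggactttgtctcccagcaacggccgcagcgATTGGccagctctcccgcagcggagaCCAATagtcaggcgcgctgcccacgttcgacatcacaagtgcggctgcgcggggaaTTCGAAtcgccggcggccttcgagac
Bub3: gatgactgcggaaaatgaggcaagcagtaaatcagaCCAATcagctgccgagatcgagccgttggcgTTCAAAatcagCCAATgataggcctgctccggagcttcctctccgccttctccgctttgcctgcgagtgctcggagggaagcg
In Plk1 the CHR word began 31 bases after the start and the CCAAT word 14 bases before it. Bub3 held the same kinds of word, with TTTGAA on the other strand 43 bases before the start and CCAAT words 74 and 32 bases before it. Another window of Bub3, with a later start, put TTTGAA 167 and the CCAAT words 198 and 156 bases before that start. The window of Plk4 held none of the words searched. A match is a description of letters and not a site in use.

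Among the Aurora genes, Tpx2 and Aurka separated the conditions and Aurkb did not. Tpx2, the spindle protein that binds and activates Aurora A, lies on chromosome 2 at 152673700 to 152721057 (plus strand, mm9). Its normalized counts were 2607 and 3557 in the serum libraries (replicate 1, then replicate 2, here and in later sentences) against 813 and 543 in the 2i libraries. Its log2 fold change of 2.19 (SE 0.46, n = 2 against 2) was the largest of the 10 genes, a 4.58-fold difference with a 95% interval of 2.12 to 9.89. The unadjusted p-value in limma was 0.00263 and the adjusted p-value 0.753, and the adjusted p-value was 0.000987 with DESeq2. On the log2(normalized count + 1) scale, single serum libraries stood at 3.20 to 6.54 times single 2i libraries, so the 4 pairings differed in size but not in direction.

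Aurka, the Aurora A kinase of centrosomes and spindle poles, lies on chromosome 2 at 172181690 to 172196035 (minus strand). It had 738 and 1159 normalized counts in the serum libraries against 247 and 383 in the 2i libraries. The lower serum value was 1.93 times the higher 2i value, so the groups did not overlap. Its log2 fold change was 1.58 (SE 0.49), or 3.0-fold with an interval of 1.32 to 6.83, and the adjusted p-value was 0.753 in limma and 0.0981 in DESeq2. Its printed window holds a CHR word and a pair of CCAAT words.

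Aurkb, the Aurora B kinase of the chromosomal passenger complex, which corrects faulty attachments at the centromere, lies on chromosome 11 at 68859149 to 68865166 (plus strand). It had 389 and 325 normalized counts in the serum libraries against 354 and 290.0 in the 2i libraries. The 2 conditions overlapped, with 2i replicate 1 above serum replicate 2. The fold change was 1.11 with an interval of 0.517 to 2.38, which holds both a 2-fold higher level and no difference (limma adjusted p-value 0.947).

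In the Polo and NIMA families, Plk1 and Nek2 lay more than 2-fold higher in serum, and Plk4 lay higher by less. Plk1, the Polo-like kinase of mitotic entry, spindle assembly and cytokinesis, lies on chromosome 7 at 129302951 to 129313389 (plus strand). It had 692 and 905 normalized counts in the serum libraries against 281 and 119 in the 2i libraries. All serum values were above all 2i values, and the 2i replicates differed from each other by 1.23 on the log2 scale. The log2 fold change was 2.10 (SE 0.57), or 4.30-fold with an interval of 1.67 to 11.1, at an unadjusted p-value of 0.00876 and an adjusted p-value of 0.753 in limma. Leaving out 2i replicate 2 gave a log2 fold change of 1.49, and leaving out 2i replicate 1 gave 2.72. Of the 2161 words of 43 bases (the read length) in the transcripts of Plk1, 204 also occur in the pseudogene Plk-ps1, so 90.6% were in no other gene and the split of reads between these genes is uncertain. In the other 9 genes that share was 98.2% or more.

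Nek2, a NIMA-related kinase that releases the link between centrosomes before the spindle forms, lies on chromosome 1 at 193645323 to 193656929 (plus strand). It had 1262 and 2060 normalized counts in the serum libraries against 592 and 383 in the 2i libraries. The groups did not overlap, with the closest pair of libraries 2.13-fold apart. The log2 fold change was 1.76 (SE 0.49), or 3.38-fold with an interval of 1.49 to 7.67, and the adjusted p-value was 0.753 in limma and 0.0546 in DESeq2.

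Plk4, the kinase that starts centriole duplication, lies on chromosome 3 at 40603941 to 40620805 (plus strand). It had 1026 and 1227 normalized counts in the serum libraries against 891 and 437 in the 2i libraries. Both serum values were higher than both 2i values, yet the closest pair of libraries differed only 1.15-fold. The fold change of 1.80 had an interval of 0.768 to 4.2, which holds no difference as well as a 4-fold one (limma adjusted p-value 0.753).

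In the checkpoint group, Ttk, Bub1b and Bub1 separated the conditions, and Bub3 did not. Ttk, also known as Mps1, is the kinase that starts checkpoint signalling at unattached kinetochores, and it lies on chromosome 9 at 83728296 to 83765997 (plus strand). It had 1331 and 1770.0 normalized counts in the serum libraries against 479 and 284 in the 2i libraries. The closest pair of libraries differed 2.78-fold and the farthest 6.21-fold. The log2 fold change was 2.05 (SE 0.48), or 4.15-fold with an interval of 1.87 to 9.24. The unadjusted p-value was 0.00445 and the adjusted one 0.753 in limma, and the adjusted p-value was 0.0118 in DESeq2.

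Bub1b, which encodes BubR1, the part of the mitotic checkpoint complex that blocks the anaphase-promoting complex, lies on chromosome 2 at 118423947 to 118467328 (plus strand). It had 3429 and 4908 normalized counts in the serum libraries against 1471 and 1090.3 in the 2i libraries. Serum and 2i libraries were at least 2.33-fold apart. The fold change was 3.24 with an interval of 1.5 to 7.0 (1.69 on the log2 scale, SE 0.46), and the adjusted p-value was 0.753 in limma and 0.0161 in DESeq2.

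Bub1, a kinase that brings other checkpoint proteins to the kinetochore, lies on chromosome 2 at 127626858 to 127657601 (minus strand). It had 1620 and 2891 normalized counts in the serum libraries against 990.4 and 850 in the 2i libraries. The groups did not overlap, and the serum replicates lay farther apart than the 2i replicates. The fold change was 2.36 with an interval of 1.06 to 5.24, the smallest of the 7 genes whose interval lay above 1 (limma unadjusted p-value 0.0391, adjusted p-value 0.753).

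Bub3, the adaptor that carries Bub1 and BubR1 to the kinetochore, lies on chromosome 7 at 138703905 to 138715412 (plus strand). It had 644 and 790.2 normalized counts in the serum libraries against 553 and 1164 in the 2i libraries. Both serum values lay between the 2i values. The fold change was 0.889 with an interval of 0.374 to 2.11 (limma adjusted p-value 0.947), and its sign turned without 2i replicate 2, where the log2 fold change was 0.37. The annotated span of Bub3 overlaps that of Fgfr2 on the opposite strand, and the library kit is not stated to keep strand. No 43-base words of the Bub3 transcripts are shared with another gene.

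**Figure D2:**
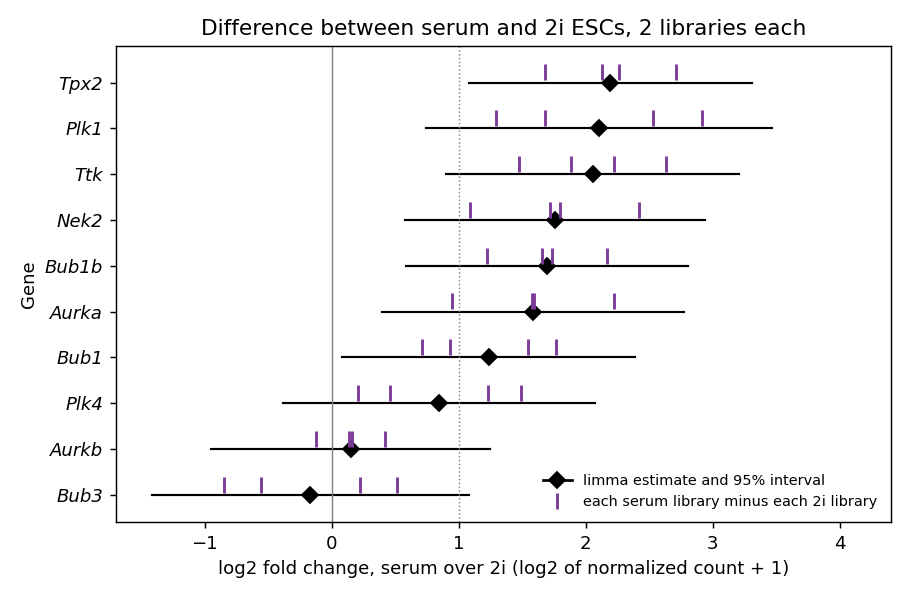
Log2 fold change of serum over 2i for each gene, with its 95% interval from limma, beside the log2 differences between single serum and 2i libraries. The intervals of Aurkb, Plk4 and Bub3 hold 0, and the other 7 lie above it.

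The libraries of a condition differed among themselves in a shared direction. Serum replicate 2 was above serum replicate 1 in 9 of 10 genes, all but Aurkb. The median difference was 0.43 on the log2 scale, against 0.045 over all genes tested. 2i replicate 2 was below 2i replicate 1 in 8 of 10, all but Aurka and Bub3. The median difference was -0.51, against 0.031 over all genes tested. The median log2 difference over the 10 genes was therefore 1.16 between serum replicate 1 and 2i replicate 1 and 1.97 between serum replicate 2 and 2i replicate 2. It was 1.44 between serum replicate 1 and 2i replicate 2, and 1.71 between serum replicate 2 and 2i replicate 1. Over the list of other G2-phase and mitosis genes described below, the median of replicate 2 minus replicate 1 was 0.43 in serum and -0.61 in 2i. Serum replicate 2, the higher of the serum libraries, also had the highest protein-coding share of reads, and the part of that share in these values was not tested.

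Levels can be compared between genes only per length, here as normalized counts per kb of summed exon length. In serum ESCs the order of mean levels was Bub1b, Tpx2, Ttk, Bub1, Aurka, Nek2, Plk1, Bub3, Plk4 and Aurkb. Bub1b stood at 801 and 1147 per kb and Tpx2 at 557 and 761, so the lower library of Bub1b was above both of Tpx2. From Tpx2 to Bub3 each gene overlapped its neighbour in the order. Plk4 at 175 and 209 and Aurkb at 132 and 110.2 each lay below the gene before it in both libraries. The median protein-coding gene stood at 87.2 to 88.7 per kb, and all 10 members were above it in both serum libraries. The order depends on the length used. Per kb of the longest transcript Bub1b was again first, but per kb of coding length it stood at 1085 and 1554 in serum, beside Tpx2 at 1165 and 1589.6 with overlap, and Tpx2 had the highest mean. Nek2 ranked 6 per exon length and 3 per coding length, and Aurkb had the lowest mean in serum under all 3 lengths.

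In 2i ESCs the order was Bub3, Bub1b, Bub1, Tpx2, Ttk, Aurka, Plk4, Aurkb, Nek2 and Plk1. Bub3, eighth in serum at 314 and 385 per kb, stood first at 269 and 566, where it overlapped Bub1b at 344 and 255. From Tpx2 to Plk1 each gene overlapped its neighbour in the order. Bub3 had the highest mean in 2i and Plk1 the lowest under all 3 lengths. Plk1 went from 314 and 411 per kb in serum to 128 and 54.2 in 2i, which set it at percentile 82.0 of 12926 protein-coding genes in serum and at percentile 49.2 in 2i. Bub1b was at percentile 93.6 in serum and 80.0 in 2i, and Bub3 at percentile 81.3 in serum and 85.7 in 2i. The summed level of the 10 genes was 3695 and 5210 per kb in serum and 1808 and 1694 in 2i. Bub3 made up 8.49% and 7.38% of that sum in serum against 14.9% and 33.4% in 2i, and with coding length 9.93% and 8.67% against 16.8% and 36.5%.

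**Figure D3:**
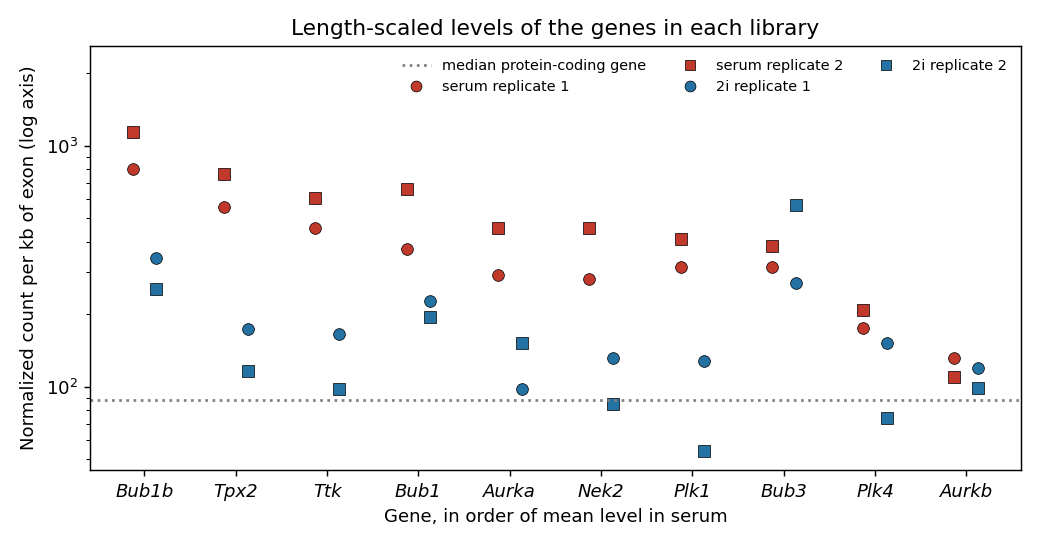
Level of each gene per kb of summed exon length in every library, on a log axis, with the median protein-coding gene for scale. Bub1b has the highest mean in serum on this length, and Bub3 the highest mean in 2i.

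Ratios of levels per kb within a library do not depend on its scaling. Their size depends on the length used, but their fold difference between libraries does not. They restate the values given above for pairs of genes, and the pairs were not part of the planned comparisons. Ratios over Bub3 share its values and are not separate observations. The ratio of Aurka to Aurkb was 2.21 and 4.15 in serum against 0.812 and 1.54 in 2i, so it was higher in both serum libraries. The ratio of Plk1 to Plk4 was 1.80 and 1.96 in serum against 0.841 and 0.727 in 2i, with little spread within each condition. Among the checkpoint genes, the ratio of Bub1b to its adaptor Bub3 was 2.56 and 2.98 in serum against 1.28 and 0.450 in 2i. The ratio of Bub1 to Bub3 was 1.19 and 1.73 against 0.845 and 0.345, and that of Ttk to Bub3 was 1.46 and 1.59 against 0.612 and 0.173. Bub1b to Bub1 moved less, at 2.15 and 1.73 in serum against 1.51 and 1.31 in 2i, without overlap. The ratio of Tpx2 to its kinase Aurka overlapped, at 1.91 and 1.66 in serum against 1.78 and 0.767 in 2i. An exact permutation test over 2 libraries against 2 allows 3 splits, so its smallest two-sided p is 0.333, and these ratios were not tested.

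**Figure D4:**
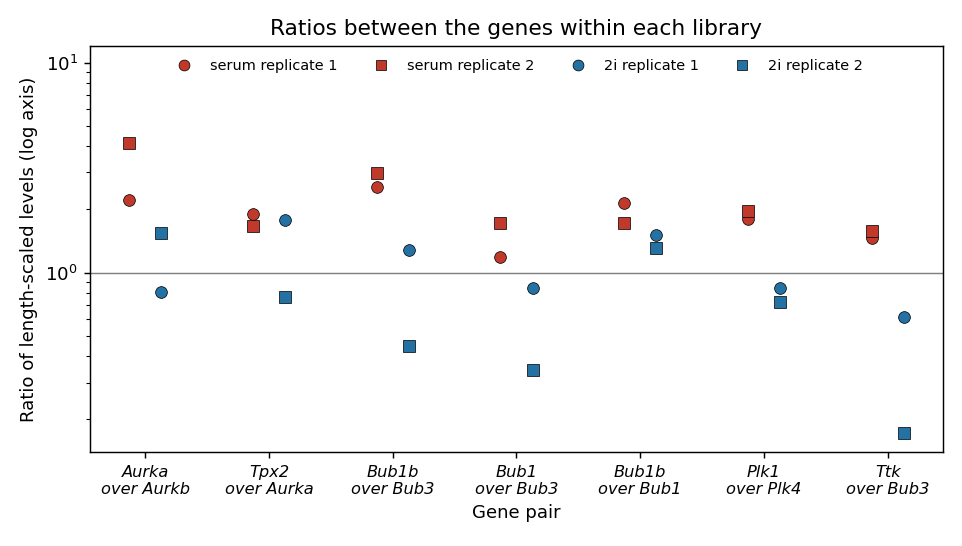
Ratio of normalized counts per kb between pairs of the genes in each library, on a log axis. The points of Tpx2 to Aurka overlap, and in the other ratios both serum points lie above both 2i points. The share of such ratios among other gene pairs was not computed, and ratios over Bub3 share its values.

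Partners, substrates and relatives of these kinases were examined as a list of 40 genes, of which 37 were tested. In 29 of the 37 the fold change was above 1 (50.3% of all genes tested), 21 had both serum values above both 2i values (20.5% of all genes) and 3 had both below (19.4%). The median log2 fold change of the list was 0.77. With limma and with edgeR 0 of the 37 were called, 7 had an unadjusted limma p-value under 0.05 with a 2-fold higher level in serum (2.97% of all genes), and DESeq2 called 2, Birc5 and Cdc20 (0.561%). Without serum replicate 2 the 7 became 0, and without serum replicate 1 they became 4. Genes of these lists that are not at an end of their list were named after their values were seen.

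Of 6 tested Aurora partners, 5 had both serum values above both 2i values, against 20.5% of all genes. Birc5, which encodes survivin of the chromosomal passenger complex, had 2095 and 2135 normalized counts in the serum libraries against 795 and 436 in the 2i libraries, a log2 fold change of 1.84 (SE 0.48). Its partners in that complex, Incenp and Cdca8, had log2 fold changes of 1.2 and 1.0 with no overlap, whereas the values of the complex's kinase, Aurkb, overlapped. Ajuba, an activator of Aurora A, was at the low end with -0.05, a sign that turned under several settings.

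Of 12 further checkpoint genes, 11 were higher in serum (50.3% of all genes) and 9 had both serum values above both 2i values (20.5%), with a median log2 fold change of 0.98. Cdc20, the activator of the anaphase-promoting complex that the checkpoint holds back, had 2655 and 3788 normalized counts in the serum libraries against 982 and 978 in the 2i libraries. Its log2 fold change was 1.69 (SE 0.44), with an adjusted p-value of 0.00451 in DESeq2. Zwint, a kinetochore protein, went the other way, with 1207 and 1318 in serum against 1419 and 3503 in 2i. 2i replicate 1 lay close to the serum values and 2i replicate 2 far above them. The log2 fold change of Zwint was -0.82, and leaving out 2i replicate 2 gave -0.17 and leaving out 2i replicate 1 gave -1.47.

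The further genes of the Polo and NIMA list stood near the shares of all genes. Of the 14 tested, 9 were higher in serum (50.3% of all genes), 4 had both serum values above both 2i values (20.5%) and 2 had both below (19.4%), and the median log2 fold change was 0.13. Plk2, a Polo-like kinase of stress and growth signals, had 832 and 645 normalized counts in the serum libraries against 1087 and 2191 in the 2i libraries, a log2 fold change of -1.07 (SE 0.51) where Plk1 had 2.10. Plk3 stood at 0.37. The 7 NIMA relatives of Nek2 ranged from -0.95 for Nek8 to 0.76 for Nek7, beside 1.76 for Nek2. Sass6, the centriole cartwheel protein downstream of Plk4, was at the high end of the list with 0.86. Of 5 other mitotic kinases, 3 had both serum values above both 2i values, against 20.5% of all genes. Mastl (Greatwall) was at the high end with 1.13, and Cdk1, the kinase that drives mitotic entry, was at -0.01, with 1173 and 1464 in serum against 869 and 2004 in 2i.

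**Figure D5:**
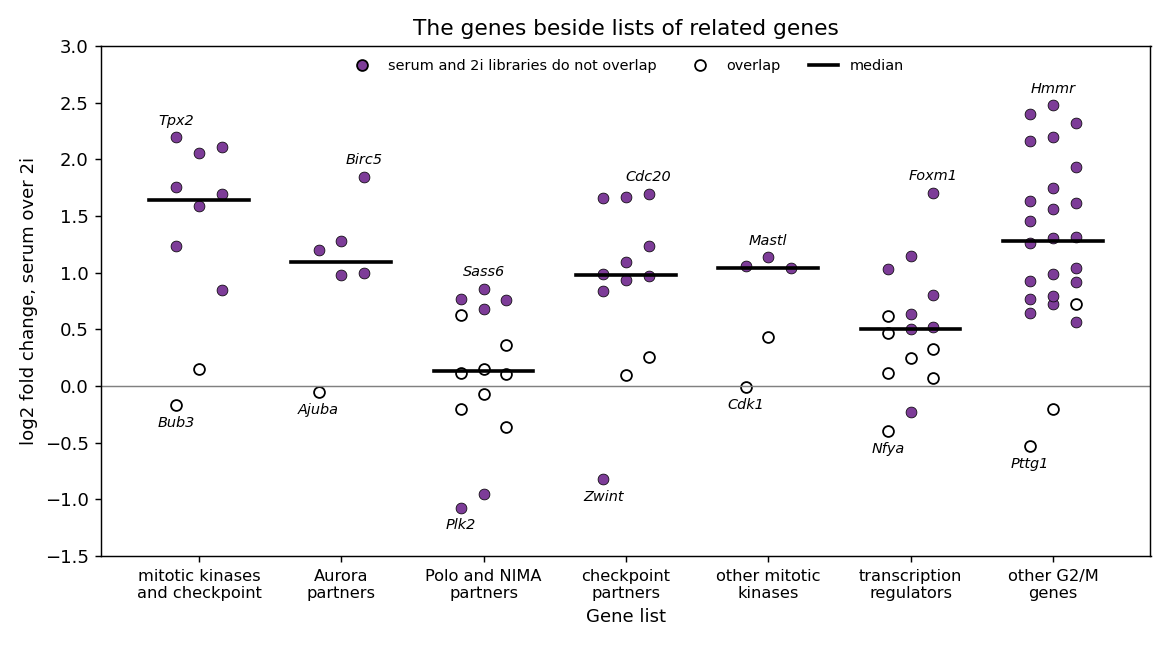
Log2 fold change of serum over 2i of every tested gene in the lists of members, partners, regulators and other G2-phase and mitosis genes, with the median of each list. The members have a median of 1.64, the partners 0.77, the regulators 0.50 and the other G2-phase and mitosis genes 1.28.

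Factors known to bind CHR, CCAAT or E2F elements, and proteins known to work with such factors, were examined as 15 tested regulators. Of these 13 were higher in serum (50.3% of all genes), 7 had both serum values above both 2i values (20.5%) and 1, Rbl1, had both below (19.4%), with a median log2 fold change of 0.50. Foxm1, the forkhead factor of G2-phase genes, had 456 and 499 normalized counts in the serum libraries against 190.0 and 112 in the 2i libraries, a log2 fold change of 1.70 (SE 0.51). Mybl2, which encodes the B-Myb factor that works with the MuvB complex, had 6446 and 6959 in serum against 5476 and 4091 in 2i, a log2 fold change of 0.50. Nfya, a subunit of the CCAAT-binding factor, was at the low end with -0.40, and at 0.087 without serum replicate 1. With limma, edgeR and DESeq2 0 of the 15 were called, and 2, Foxm1 and E2f4, had an unadjusted limma p-value under 0.05 with a 2-fold higher level in serum, against 2.97% of all genes.

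In a list of other genes of G2-phase and mitosis, 24 of 26 tested were higher in serum (50.3% of all genes) and 23 had both serum values above both 2i values (20.5%). Their median log2 fold change was 1.28, beside 1.64 for the 10 mitotic kinase and checkpoint genes. The list ran from -0.53 for Pttg1, which encodes securin, to 2.48 for Hmmr, which encodes a spindle protein. With limma and edgeR 0 of the 26 were called, 13 had an unadjusted limma p-value under 0.05 with a 2-fold higher level in serum (2.97% of all genes), and DESeq2 called 5 (0.561%).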

How the data were processed

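RNA from 2 serum and 2 2i libraries of mouse ESCs was analysed, grouped by the sample labels. Per the study's methods, the authors depleted ribosomal RNA, sequenced randomly primed fragments with single-end reads of 43 bases, used Bowtie for alignment to mm9 and MMSeq for quantification. The values the authors deposited are a scaled signal: the reads of each gene over a size factor of the library. In every library 100% of the values were whole multiples of a step (tolerance 0.01 reads), which gave whole reads, and 0 columns were left unmapped. MMSeq divides reads between related genes by estimation.

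Of the 14533 genes, 13005 reached a group mean of 50 normalized counts in serum or 2i. They were tested with limma 3.58.1 (R 4.3.3) after log2(normalized count + 1) transformation, with a variance trend and no replicate term. This scale understates the change of low genes. Calls needed a Benjamini-Hochberg adjusted p-value under 0.05 and a log2 fold change beyond 1. Intervals are limma's at 95%. A check on simulated counts required recovery of changed genes only at a set low spread between replicates. It used a lower fold cutoff than the calls. It set no requirement at the spread of these libraries, so it does not say what the fit could detect here. Since the deposited values were scaled, edgeR 4.0.16 and DESeq2 1.42.0 on whole reads were alternatives, as were other pseudocounts, filters, scalings, a GC content and length correction (mgcv 1.9.3), the replicate block and leaving out each library. Positions and lengths came from GENCODE vM1 on NCBIM37 (mm9), which held 14462 of the genes. Promoter windows came from RefSeq on GRCm38.p6, and no coordinates were converted between builds.

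The members and lists were chosen with earlier results of these data known. The rule named all 10 members and, of the other lists, genes with a limma adjusted p-value under 0.05 and the gene at each end.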

Additional observations from a re-analysis of the deposited data

How the results depend on the processing

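The median log2 fold change of the 10 genes was 1.52 to 1.72 under 14 other settings and 1.33 to 1.93 when each library was left out in turn. Members called numbered 2 (Tpx2 and Ttk) with the replicate block and 3 (Tpx2, Ttk and Bub1b) with DESeq2, and 0 under the other settings. The replicate differences of serum and 2i had a shared part across 13005 genes (r = 0.48). With 2 pairs, this cannot show whether the replicate numbers pair the libraries. Over all genes the replicate block called 44 higher in serum and 159 higher in 2i, against 0 and 2 without it. Members at an unadjusted p-value under 0.05 and 2-fold higher in serum numbered 1 to 6 when a library was left out, against 7, with 1 without serum replicate 2. For the partners that count was 4 with limma without trend and 0 to 6 with a library left out, against 7, reaching 0 without serum replicate 2 and 4 without replicate 1 of that group, and DESeq2 called 2. Upper quartile scaling set the median of all genes at -0.12 and a filter at a mean of 200 at 0.12. Near 0 the sign turned: Bub3 ranged from -0.71 to 0.37 with a library left out, Cdk1 from -0.61 to 0.59, Nfya from -0.89 to 0.087, Stil from -0.76 to 0.36 and Ajuba from -0.77 to 0.66. Ajuba was also at 0.0028 with edgeR, 0.020 with DESeq2, and 0.19 with the GC content and length correction, with or without the replicate block. The causes were not tested. With a library left out, the lone one is assumed to vary like the other group. With 2 libraries in each condition, the spread between replicates limits which differences pass a test.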

Other observations

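Elf5, one of the trophoblast markers checked, had 2215 normalized counts in 2i replicate 1 and accounted for most of the summed trophoblast level of 2480 in that library. It was named after its values were seen.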
